A study of Homo sapiens with 4 samples.

Results

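Complex I of the respiratory chain is encoded in the nucleus mostly by genes whose symbols begin with NDUF. The 48 protein-coding genes with such a symbol, of 20149 protein-coding genes in GENCODE release 44 mapped to hg19 (GRCh37), were taken by symbol alone. No measured value decided which genes belong, but earlier results of these data were known when the group was chosen. H3K27ac, an acetylated form of histone H3 found at active promoters and enhancers, had been mapped around them by ChIP-seq in K562, an established human erythroleukaemia line. The control culture carried a non-targeting shRNA (shNT) and the others carried 1 of 2 shRNAs against TFAM (TFAM-sh1 and TFAM-sh2, called hairpin 1 and hairpin 2 here). The series was set up to examine histone hyperacetylation in erythroid cells short of TFAM, which packages mitochondrial DNA and takes part in its transcription. Each condition had 1 library and 1 peak list. No value therefore has a replicate, no p-value is given, and the gap between the hairpins is the only measure of spread. Neither the extent of the knockdown, nor the time after transduction, nor whether the cells were clones is given in the sources used here.

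Complex I, NADH:ubiquinone oxidoreductase, passes electrons from NADH to ubiquinone and pumps protons across the inner mitochondrial membrane. Its peripheral arm holds the flavin and the iron-sulfur clusters on nucleus-encoded core subunits, whereas the core of its membrane arm is made from mitochondrial DNA, which TFAM maintains. Around the core sit supernumerary subunits, all of nuclear origin, and assembly factors join the modules without staying in the finished enzyme. The NDUF genes were therefore ordered by role: 7 core subunits of the peripheral arm, 9 supernumerary subunits of that arm, 9 of the proximal and 12 of the distal membrane arm, 8 assembly factors, and 3 other symbols. NDUFA4, among the last, is now counted as a cytochrome c oxidase subunit, NDUFA4L2 is its hypoxia-induced paralogue, and NDUFC2-KCTD14 is a readthrough gene.

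The sequence around the start sites is given first, as the DNA over which the peaks lay. In the window from 250 bases before to 50 bases after each start site, 10 of the 48 genes (20.8%) held AAGATGGC, the core of the YY1 motif, on either strand. This was so for 4.02% of all protein-coding genes and for 6.84% of those with a promoter peak in every list. CGCATGCG, a palindromic core of the NRF1 motif, lay in 6 of 48 (12.5%), against 2.82% and 4.79%. CCGGAAG, a core of the ETS motif, lay in 10 of 48 (20.8%), against 14.0% and 23.1%. At least 1 of these motifs was present in 23 genes (47.9%), against 19.2% of all genes and 31.5% of those marked in every list. YY1 and NRF1 are known as activators of nuclear genes for respiratory chain subunits. The ETS and YY1 letters can overlap by the bases AAG, which occurred in no NDUF gene. A match is a description of the letters and not of binding, which was not measured.

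Sites with the YY1 letters are shown for some of the NDUF genes that held them. NDUFA6, NDUFA9 and NDUFB8 are among those not shown, although their coverage is given below. The letters are in capitals with 8 bases on each side, read 5′ to 3′ from the GRCh37 genome on the gene's strand.
NDUFS7, chr19:1383915-1383938, plus strand: ccgaggccAAGATGGCggtgctgt
NDUFA3, chr19:54606176-54606199, plus strand: cggagacaAAGATGGCtgcgagta
NDUFA7, chr19:8386230-8386253, minus strand: gcggacggAAGATGGCgtccgcca
NDUFS4, chr5:52856482-52856505, plus strand: cctgcagcAAGATGGCggcggtgt
NDUFAF8, chr17:79213119-79213142, plus strand: acggacctAAGATGGCggcctcca
NDUFB5, chr3:179322503-179322526, plus strand: cctcacttAAGATGGCcacatcct
Counting the start site as position 1, the first capital stood at position 18 in NDUFS7, 22 in NDUFA3, 15 in NDUFA7, 22 in NDUFS4 and 10 in NDUFAF8. The match thus followed the start of transcription closely, on the sense strand. In NDUFB5 it stood before the start site, at position -71. Of the 10 genes with these letters, 9 had them in sense after the start site, at positions 10 to 26, and in 8 of them the ATG inside the letters was the annotated start codon. NDUFAF8 and NDUFB5 were the exceptions to the last. Among the 810 protein-coding genes with the letters, 463 (57.2%) had them in sense after the start site. The start codon was looked up for NDUF genes only, so its place in the letters cannot be called particular to them.

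Sites with the NRF1 letters are shown in the same way for 4 of the 6 NDUF genes that held them. NDUFA5 and NDUFS6 are not shown, although their coverage differed between lists too.
NDUFS7, chr19:1383824-1383847, plus strand: ccggtttcCGCATGCGctccgagc
NDUFA8, chr9:124922046-124922069, minus strand: gccggatgCGCATGCGcaggcgcc
NDUFB4, chr3:120315017-120315040, plus strand: gcacttcgCGCATGCGcatatcac
NDUFAF5, chr20:13765663-13765686, plus strand: cgcgctggCGCATGCGcacaaaaa
In NDUFA8 and NDUFAF5 the letters ran across the start site, with the first capital at position -3. In NDUFS7 they stood at position -74 and in NDUFB4 at position -158. NDUFS7 alone among these 4 also held the YY1 letters.

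The 200 bases before the start site are shown for NDUFAF4 and NDUFB6, which were covered less in both hairpins, and for NDUFB10, a subunit gene with no promoter peak in any list. None of these stretches overlaps an annotated exon. The capitals in NDUFAF4 mark the ETS letters, and the other stretches held no match to the motifs.
NDUFAF4, chr6:97345768-97345967, minus strand: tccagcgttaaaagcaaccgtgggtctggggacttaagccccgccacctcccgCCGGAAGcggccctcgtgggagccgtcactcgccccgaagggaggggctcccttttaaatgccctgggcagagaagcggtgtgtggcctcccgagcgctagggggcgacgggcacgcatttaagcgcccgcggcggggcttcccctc
NDUFB6, chr9:32573161-32573360, minus strand: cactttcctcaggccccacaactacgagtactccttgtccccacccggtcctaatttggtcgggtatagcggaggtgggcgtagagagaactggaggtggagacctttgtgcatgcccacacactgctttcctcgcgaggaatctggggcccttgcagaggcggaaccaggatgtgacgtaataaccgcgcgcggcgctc
NDUFB10, chr16:2009339-2009538, plus strand: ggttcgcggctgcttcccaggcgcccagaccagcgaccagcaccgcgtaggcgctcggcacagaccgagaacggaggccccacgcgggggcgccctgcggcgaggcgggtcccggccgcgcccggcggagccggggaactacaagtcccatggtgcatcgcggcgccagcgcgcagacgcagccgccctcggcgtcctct
The G+C content of these stretches was 68.5% for NDUFAF4, 59.5% for NDUFB6 and 76.5% for NDUFB10. The unmarked promoter was thus the richest in G+C of the 3 shown.

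Nearly all NDUF promoters were marked in every library. A promoter peak, meaning a peak that came within 1 kb of the start site on either side, was present in every list for 44 of 48 genes (91.7%), against 50.3% of all protein-coding genes. It was in no list for 2 genes (4.17%), NDUFB10 and NDUFA4L2, against 41.4% of all genes. All 7 core subunits, all 9 supernumerary subunits of the peripheral arm and all 8 NDUF assembly factors were marked throughout. So were 8 of 9 subunits of the proximal membrane arm, 11 of 12 of the distal membrane arm and NDUFA4.

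No NDUF promoter changed status in the same way in both hairpins. Of the 46 with a control peak, 0 lost it in both hairpins, against 1.54% of the genes with a control peak in the whole annotation. In hairpin 1 alone 2 of 46 (4.35%) had none, against 4.03% of all genes, and in hairpin 2 the count was 0, against 3.80%. Of the 2 genes without a control peak, 0 had one in both hairpins, against 3.30% of all genes without one. The shares lost were near or below those of all genes.

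The pair without a peak in hairpin 1 was NDUFC2 and NDUFC2-KCTD14, which start within 5 kb of each other and share 1 peak, so they are a single observation. NDUFC2, a subunit of the proximal membrane arm, starts at position 77790908 of chromosome 11 on the minus strand. Its peak ran over chr11:77789271-77793776 in the control (4506 bp, score percentile 75.0) and over chr11:77789091-77793639 in hairpin 2 (4549 bp, score percentile 75.0). The score percentile is the peak's rank within its own list by the authors' score, from 0 to 100. In hairpin 1 the nearest peak lay 17572 bp from the start site, spanned 1242 bp and ranked at percentile 8.98. Control and hairpin 2 were thus almost equal at this gene, and hairpin 1 stood apart from both.

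NDUFB10, a disulfide-bonded subunit of the distal membrane arm, starts at position 2009539 of chromosome 16 on the plus strand. Within 5 kb of its start site the control had 1997 bp covered, hairpin 1 had 0 bp and hairpin 2 had 2456 bp. The coverage came from a peak 3004 bp away in the control (4252 bp wide, percentile 78.0) and 2545 bp away in hairpin 2 (4528 bp wide, percentile 90.8). In hairpin 1 the nearest peak downstream was 10632 bp away. As at NDUFC2, hairpin 1 was the list without the peak. NDUFA4L2 was bare within 5 kb in every list, with the nearest peak 5795, 6034 and 6016 bp from its start site in control, hairpin 1 and hairpin 2. A list without a peak at a promoter is no evidence that acetylation was missing there, because library depth, the settings of the peak caller and any limit on peak width are unknown.

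**Figure D1:**
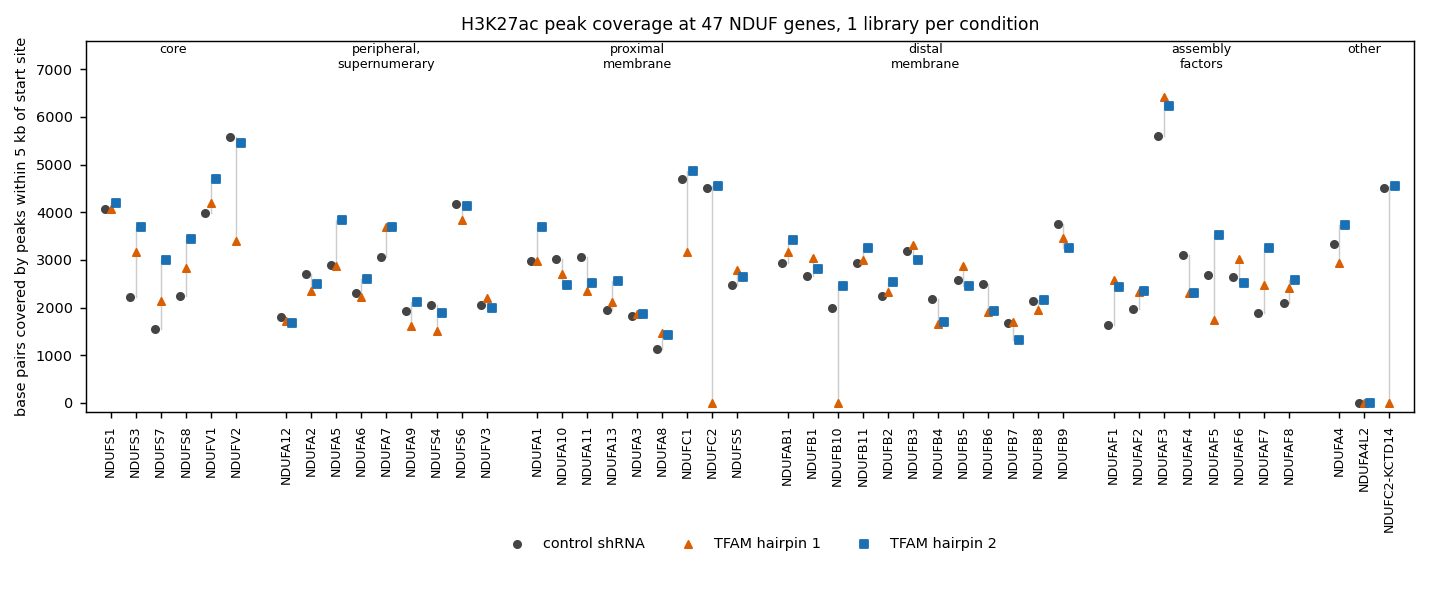
Base pairs covered by H3K27ac peaks within 5 kb of the start site of 47 of the NDUF genes, grouped by role, with 1 library per condition (circle, control; triangle, hairpin 1; square, hairpin 2; thin lines join the values of a gene). The genes with a promoter peak in every list lie between 1124 and 5596 bp in the control; NDUFC2, NDUFC2-KCTD14 and NDUFB10 drop to 0 in hairpin 1.

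The plot of covered base pairs by gene shows how the marked NDUF genes varied. For the 44 with a promoter peak in every list, the sequence covered within 5 kb of the start site ran from 1124 bp (NDUFA8) to 5596 bp (NDUFAF3) in the control. The median was 2610.5 bp with the control shRNA, 2647 bp with hairpin 1 and 2620.5 bp with hairpin 2. Over all 10143 genes marked in every list it was 2609, 2707 and 2875 bp. The NDUF genes thus had a median coverage close to that of all marked genes in the control and in hairpin 1, and a lower one in hairpin 2, although gene by gene their differences from the control were much like those of the rest.

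Differences from the control were small for most NDUF genes and went both ways. The median difference was 57.5 bp in hairpin 1 and 167 bp in hairpin 2, against 75 and 210 bp over all marked genes. Coverage was higher than in the control at 25 of 44 genes in hairpin 1 (56.8%; 56.0% of all marked genes) and at 28 of 44 in hairpin 2 (63.6%; 66.4%), shares near the background. It was higher in both hairpins at 20 genes (45.5%; 45.0% of all genes), lower in both at 11 (22.5% of all genes) and different in sign at 13 (29.5%; 32.2% of all genes). The hairpins share the control library, so these signs are not independent. The median size of the difference, without its sign, was 341 bp for hairpin 1, 388 bp for hairpin 2 and 244.5 bp between the hairpins, against 360, 374 and 377 bp over all genes. The hairpins were thus closer to each other at NDUF genes than either was to the control, which over all genes they were not. Mitochondrial ribosomal protein genes had the same order, though narrowly, with 298.5, 371 and 295 bp. Genes of respiratory complexes II to V had 323.5, 250.5 and 252 bp. These differences between groups of genes were not tested.

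**Figure D2:**
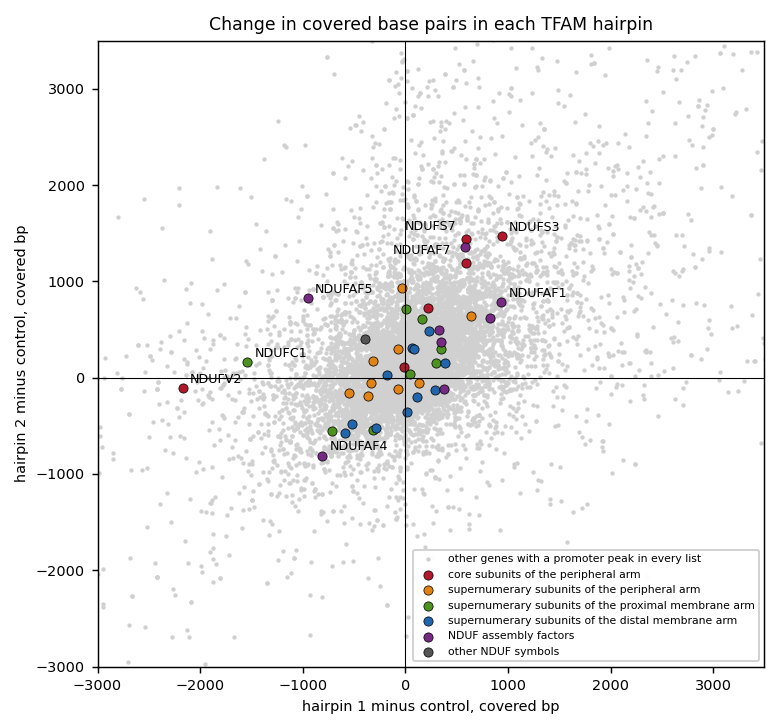
Difference in covered base pairs from the control for hairpin 1 (horizontal axis) and hairpin 2 (vertical axis), with 43 NDUF genes coloured by role over other genes marked in every list (grey). The axes leave out 154 of the 10143 genes and none of the NDUF genes for being out of range; NDUFV2 lies far to the left.

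A gene was called past the spread when the control lay on one side of both hairpins. It also had to lie farther from the nearer hairpin than the hairpins lay from each other. Among any 3 values 1 is set apart in this way unless the gaps tie, so a call alone is no evidence of a change. The control was above both hairpins in this sense at 8 of 44 NDUF genes (18.2%), against 10.8% of all marked genes. It was below both at 9 of 44 (20.5%), against 22.1%. These counts are small and have no replicate check. The share with the control above lay farther from its background than the share below, but these backgrounds are not matched for G+C. In the lowest G+C quintile of all marked genes, which held 17 of the 44, the control was above both at 16.9%. By size alone, 0 of 44 were at least 1.5-fold lower in both hairpins (0.749% of all genes) and 0 were 1.5-fold higher in both (4.27%). In hairpin 1, 2 genes were 1.5-fold lower (NDUFAF5 and NDUFV2; 4.75% of all genes) and 2 were higher (NDUFAF1 among them; 8.19%). In hairpin 2, 0 were 1.5-fold lower (2.40% of all genes) and 4 were higher (NDUFAF7, NDUFS3, NDUFS7 and NDUFS8; 11.1%). The plot of hairpin differences places these genes against all others.

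The core subunits of the peripheral arm had the widest coverage among the roles with several genes. Over the 6 described here the median was 3110 bp with the control shRNA, 3279.5 bp with hairpin 1 and 3938.5 bp with hairpin 2. Coverage was above the control at 4 of these 6 in hairpin 1 and at 5 of 6 in hairpin 2, with median differences of 407 and 956.5 bp. Over all marked genes 56.0% and 66.4% were above the control. The core medians were 764 and 1456 bp when 10 kb on each side was counted, and that of hairpin 2 was 418.5 bp with the gene's 5′ end as start site. With 5 kb on each side, NDUFS3 was the only core gene past the spread between hairpins. It lost that call when the gene's 5′ end was the start site, where its mean difference was 354 bp in place of 1203.5 bp. That 5′ end is at position 47586888, and its 5 kb window does not reach the NDUFS3 promoter peaks, so another region was measured. Within 10 kb NDUFS8 was past the spread too.

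NDUFS3, a subunit beside the ubiquinone site (start at position 47600626 of chromosome 11), had 2220 bp with the control shRNA, 3159 bp with hairpin 1 and 3688 bp with hairpin 2. The control was the lowest, and the differences were 0.51 and 0.73 on the log2 scale. The upstream reach grew from 1148 bp to 1793 and 2283 bp. In every list it passed the start site of KBTBD4, which lies 104 bp upstream and runs the other way. NDUFS7, which carries the last iron-sulfur cluster before ubiquinone (start at position 1383906 of chromosome 19), had 1545 bp with the control shRNA, 2134 bp with hairpin 1 and 2989 bp with hairpin 2. Its gain lay downstream, where the peak reached 921, 1391 and 2442 bp into the gene, and the hairpins differed by more than hairpin 1 did from the control. Its peak ranked at percentile 99.7, 99.4 and 97.1, among the highest of each list. NDUFS8, another iron-sulfur subunit (start at position 67798148 of chromosome 11), had 2240 bp with the control shRNA, 2829 bp with hairpin 1 and 3432 bp with hairpin 2. At NDUFS3, NDUFS7 and NDUFS8 hairpin 2 was the highest list and the control the lowest, and the same held for NDUFV1 below.

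NDUFV2, an iron-sulfur subunit of the NADH-oxidising tip (start at position 9102697 of chromosome 18), was below the control in both hairpins, but nearly all of the fall was in hairpin 1. It had 5570 bp with the control shRNA, 3400 bp with hairpin 1 and 5463 bp with hairpin 2. The missing stretch was downstream, where the peak reached 4062 bp with the control shRNA, 2038 bp with hairpin 1 and 4131 bp with hairpin 2. Its partner NDUFV1, which binds NADH and the flavin, had 3980, 4205 and 4701 bp, in the order control, hairpin 1, hairpin 2, which is used for all further triplets. NDUFS1, the largest iron-sulfur subunit (start at position 207024168 of chromosome 2), had 4073, 4064 and 4189 bp. Its 3 values lay within 125 bp, the third smallest range of the 44 genes.

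The supernumerary subunits of the peripheral arm went both ways. Their median was 2308 bp with the control shRNA, 2232 bp with hairpin 1 and 2505 bp with hairpin 2, and the median differences were -76 and -50 bp. Without their sign, the median differences were 318 and 171 bp, against 360 and 374 bp over all marked genes. Coverage was below the control at 7 of 9 genes in hairpin 1 and at 5 of 9 in hairpin 2. Over all 10143 marked genes it was below at 4443 in hairpin 1 and 3405 in hairpin 2. NDUFA2, a thioredoxin-like subunit, had 2699 bp with the control shRNA, 2340 bp with hairpin 1 and 2505 bp with hairpin 2. NDUFA12, the paralogue of the assembly factor NDUFAF2, had 1800, 1729 and 1678 bp. In both the control was above the hairpins by more than they differed, although at NDUFA12 the whole range was 122 bp. NDUFA7 had 3056 bp with the control shRNA, 3696 bp with hairpin 1 and 3695 bp with hairpin 2, so that the control was the lowest and the hairpins were level. The start site of RPS28, a ribosomal protein gene, lies 121 bp from that of NDUFA7 and is served by the same peak. The other 6 genes were not past the spread. Among them NDUFA5 had 2899, 2867 and 3829 bp, with hairpin 2 alone high and a peak that reached 1974, 2193 and 3100 bp downstream. NDUFA6, an LYR protein, had 2308, 2232 and 2606 bp, and NDUFA9, which binds a nucleotide cofactor, had 1937, 1619 and 2108 bp. NDUFS6, a zinc-binding subunit, had 4175, 3837 and 4125 bp, and NDUFV3, at the NADH-oxidising tip, had 2059, 2197 and 2002 bp. Hairpin 1 was the lowest list at NDUFA2, NDUFA5, NDUFA6, NDUFA9, NDUFS4 and NDUFS6, and hairpin 2 at NDUFA12 and NDUFV3. NDUFS4, an accessory subunit known for its mutations in Leigh syndrome, had 2045, 1500 and 1890 bp and the promoter poorest in G+C of the marked NDUF genes (40.3%).

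In the proximal membrane arm 8 genes had a peak in every list. The control was above both hairpins at 2 of them, against 10.8% of all marked genes. It was below both at 3, against 22.1%. The median differences over the 8 were 27 bp in hairpin 1 and 158 bp in hairpin 2. NDUFA10, which has the fold of a nucleoside kinase, had 3027 bp with the control shRNA, 2714 bp with hairpin 1 and 2484 bp with hairpin 2. NDUFA11, a membrane protein related to the TIM17 family, had 3070, 2357 and 2512 bp. Both were covered less in the hairpins, and at NDUFA11 the loss was upstream, where the peak reached 1712 bp with the control shRNA, 887 bp with hairpin 1 and 908 bp with hairpin 2. NDUFA8, a subunit with twin cysteine motifs facing the intermembrane space, had 1124 bp with the control shRNA, 1468 bp with hairpin 1 and 1419 bp with hairpin 2. NDUFS5, of the same fold, had 2482, 2785 and 2635 bp. NDUFA3, a small subunit with a membrane helix, had 1822, 1870 and 1863 bp, and its range of 48 bp was the smallest of all 44 genes. These 3 genes had the control as the lowest value, at NDUFA3 by under 50 bp. NDUFC1, another small membrane subunit, had 4702 bp with the control shRNA, 3161 bp with hairpin 1 and 4865 bp with hairpin 2. Its peak was cut short downstream in hairpin 1, where it reached 2552 bp against 3970 and 3884 bp in control and hairpin 2. NDUFA1 had 2975, 2981 and 3688 bp and NDUFA13, also known as GRIM-19, had 1960, 2125 and 2566 bp. Hairpin 2 was the highest list at both, and neither was past the spread.

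In the distal membrane arm the control was above both hairpins at 3 of 11 genes, against 10.8% of all marked genes. It was below both at 0, against 22.1%. The median differences over the 11 were 67 bp in hairpin 1 and -130 bp in hairpin 2. NDUFB4 had 2178 bp with the control shRNA, 1660 bp with hairpin 1 and 1698 bp with hairpin 2. NDUFB6 had 2493, 1901 and 1921 bp. At both genes the hairpins were within 38 bp of each other and fell by 0.36 to 0.39 on the log2 scale. NDUFB9, of the LYR family that binds the acyl carrier protein, had 3760, 3471 and 3241 bp. It starts 38 bp from TATDN1, which runs the other way, and its difference turned to the opposite sign when 10 kb on each side was counted. NDUFAB1, the acyl carrier protein itself, had 2938, 3171 and 3422 bp. It was higher in both hairpins but not past the spread, and so were NDUFB1 (2666, 3048 and 2817 bp), NDUFB2 (2246, 2327 and 2540 bp) and NDUFB11 (2942, 3009 and 3247 bp). At NDUFB3 (3198, 3311 and 3001 bp), NDUFB5 (2584, 2872 and 2454 bp), NDUFB7 (1671, 1692 and 1313 bp) and NDUFB8 (2137, 1956 and 2160 bp) the hairpins lay on opposite sides of the control.

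Among the assembly factors the control was below both hairpins at 4 of 8, where 22.1% of all marked genes were. Of these, NDUFAF2 and NDUFAF8 kept the call under each other window, start site and peak selection, whereas NDUFAF3 lost it within 10 kb. NDUFAF1 lost the call with the gene's 5′ end as start site, where the window does not reach its promoter peaks. Their median differences were 361 bp in hairpin 1 and 560 bp in hairpin 2. NDUFAF1, which works with ECSIT and ACAD9 on the membrane arm, had 1646 bp with the control shRNA, 2580 bp with hairpin 1 and 2432 bp with hairpin 2. It was covered more in both hairpins, by 0.65 and 0.56 on the log2 scale, with a gain on each side of the start site. NDUFAF2, which binds a late intermediate, had 1973, 2321 and 2347 bp. NDUFAF3, which builds the ubiquinone module together with NDUFAF4, had 5596, 6425 and 6221 bp, the widest coverage of all NDUF genes in the control. NDUFAF8, which stabilises NDUFAF5, had 2087, 2415 and 2582 bp. In these 4 genes the control was the lowest list.

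NDUFAF4 ran against its partner NDUFAF3. It had 3111 bp with the control shRNA, 2303 bp with hairpin 1 and 2300 bp with hairpin 2, log2 ratios of -0.43 and -0.44 with the hairpins 3 bp apart. Of the 8 genes with the control above both hairpins it had the largest fall. NDUFAF7, a methyltransferase, had 1893 bp with the control shRNA, 2473 bp with hairpin 1 and 3252 bp with hairpin 2. Both hairpins were higher there, but they differed by more than hairpin 1 did from the control. NDUFAF5, the hydroxylase that acts on NDUFS7, had 2687 bp with the control shRNA, 1734 bp with hairpin 1 and 3515 bp with hairpin 2, with the hairpins on opposite sides of the control. NDUFAF6 had 2637, 3011 and 2524 bp, also on opposite sides. NDUFA4, outside the assembly factors, had 3330, 2933 and 3732 bp and was split in the same manner.

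**Figure D3:**
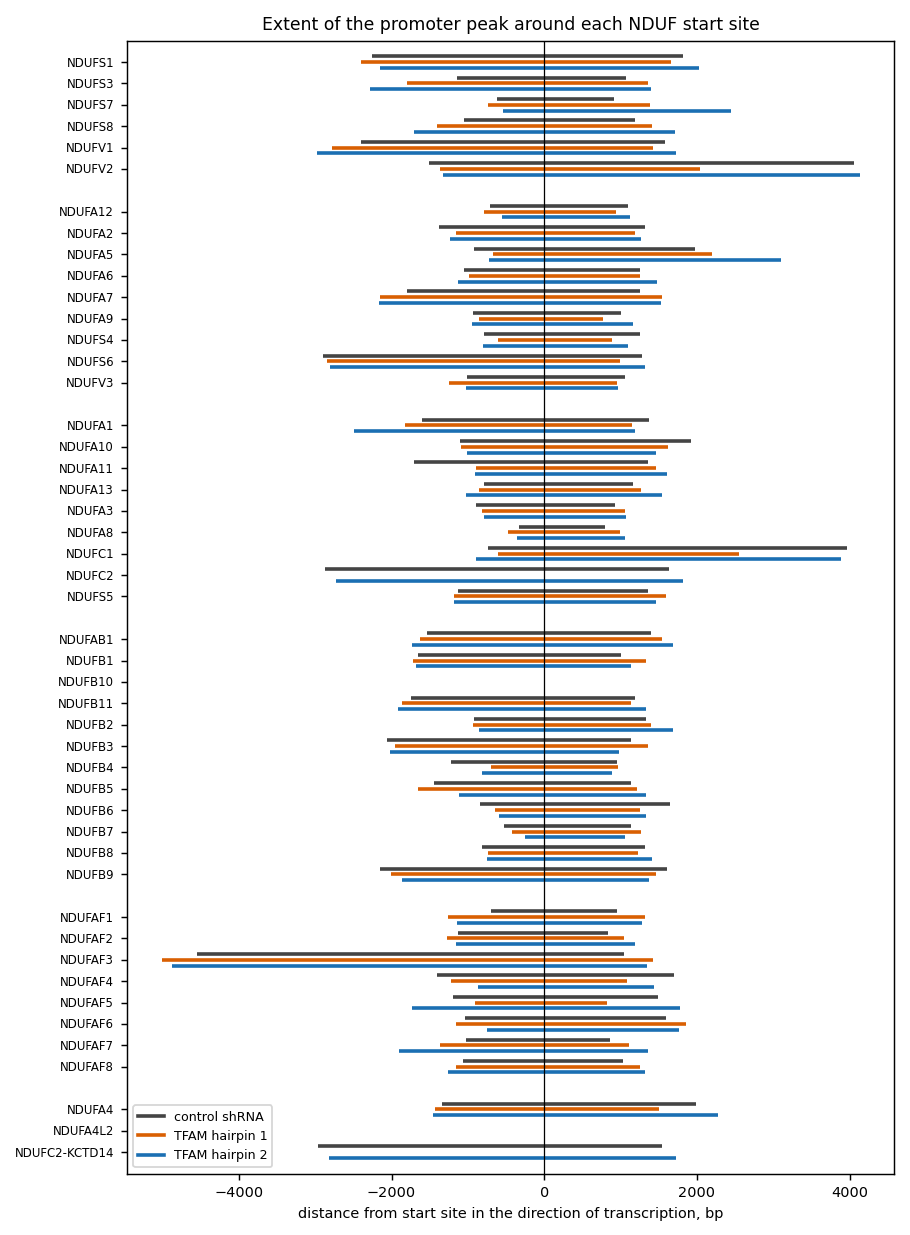
Extent of the promoter peak around the start site of 47 NDUF genes, in bp in the direction of transcription (negative, upstream), for control, hairpin 1 and hairpin 2. The start site lies inside the peak in every list for each of the 43 genes drawn with a peak in all; NDUFV2 and NDUFC1 are shorter downstream in hairpin 1.

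The plot of peak extents shows a simple layout. Each of the 44 genes had exactly 1 promoter peak in each list, and the start site lay inside it. The median reach was 1128.5 bp upstream and 1260 bp downstream in the control, 1205 and 1298.5 bp in hairpin 1, and 1152.5 and 1366.5 bp in hairpin 2. The downstream side was the longer at 24, 24 and 29 of 44 genes. This layout was not counted over all marked genes, so none of it can be called particular to NDUF genes. NDUFAF3 was the main exception in the control, with 4549 bp upstream and 1046 bp downstream, and the start site of DALRD3 lies within 5 kb.

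NDUF promoter peaks ranked high in every list. Their median score percentile was 86.3 in the control, 86.8 in hairpin 1 and 86.0 in hairpin 2, against 78.1, 79.3 and 81.7 for all genes marked in every list. All 44 were in the upper 50% of the control and hairpin 2 lists, and 43 were in that of hairpin 1. Of all marked genes 86.8%, 90.6% and 92.9% were in the upper 50% of the same lists. Width and rank did not move together. Across the 44 genes the Spearman correlation between the log2 ratio of covered bp and the change in percentile was -0.35 for hairpin 1 and -0.42 for hairpin 2, against -0.13 and -0.10 across the 10143 marked genes. The points of each correlation share the libraries, and genes are not independent replicates. A peak with more covered bp but a lower percentile than in the control was seen at 14 genes (31.8%) in hairpin 1 and 17 (38.6%) in hairpin 2, against 28.1% and 26.1% of all marked genes. NDUFB5 showed how far a rank could move with little change in coverage, with 2584, 2872 and 2454 bp at percentiles 96.7, 68.4 and 92.4.

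The G+C content of the promoters moved with these differences. Within 1 kb of the start site the 44 genes had a median G+C of 53.6% (40.3% to 66.8%), against 57.4% for all marked genes. Across the 44, the Spearman correlation of G+C with the log2 ratio of covered bp was 0.44 in hairpin 1 and 0.30 in hairpin 2, against 0.27 and 0.20 over all marked genes, with the control library shared by both ratios. When all marked genes were divided into quintiles by G+C, 17 of the 44 lay in the lowest quintile (30.9% to 51.5%), 11 in each of the next 2, and 5 in the rest. In the lowest quintile the median difference from the control was -318 bp in hairpin 1 and -107 bp in hairpin 2 for the NDUF genes, and -145.5 and 39 bp for all genes. In the second quintile the NDUF medians were 303 and 153 bp, against 2 and 151 bp.

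The calls with the control above both hairpins fell mostly in the lowest quintile, and those with the control below both were spread more widely. Of the 8 NDUF genes with the control above both hairpins, 5 were in the lowest quintile, namely NDUFA2, NDUFA12, NDUFB4, NDUFB6 and NDUFB9, or 29.4% of the 17 there, against 16.9% of all genes of that quintile. Of the 9 with the control below both, 2 were in the lowest quintile (NDUFA8 and NDUFAF1; 11.8% of the 17 and 11.8% of all genes), 3 in the second, 2 in the third, 0 in the fourth and 2 in the highest. Over all genes the share with the control above both fell to 6.16% in the highest quintile, and the share with the control below both rose to 32.6%. NDUFAF3 and NDUFAF8, at 66.8% and 66.1%, were the NDUF genes in the highest quintile, and both had the control below the hairpins. The part of G+C in the differences was not tested.

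**Figure D4:**
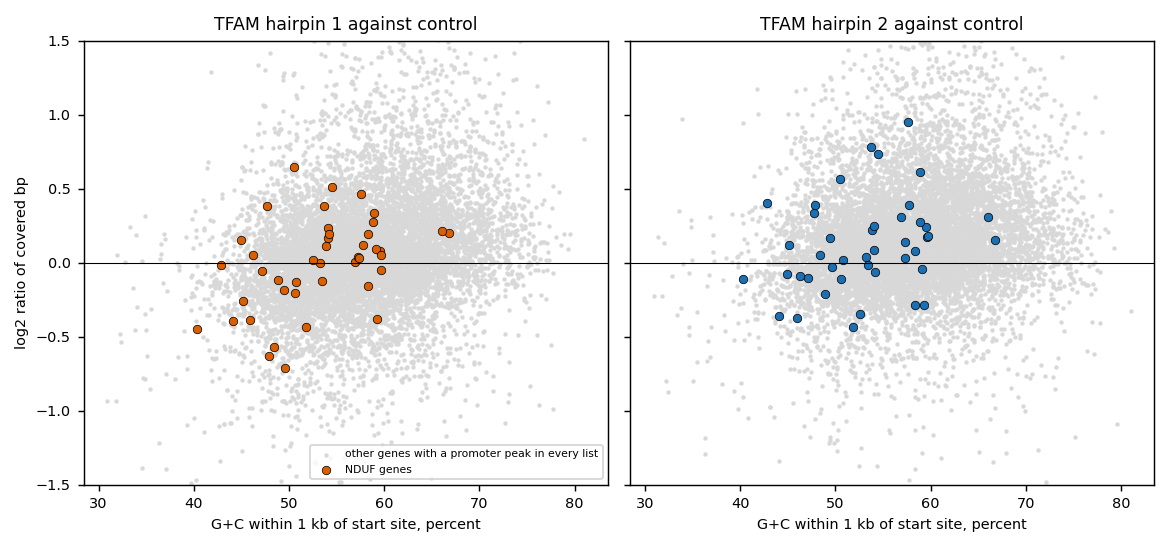
Log2 ratio of covered base pairs in each hairpin to the control (vertical axes) against G+C within 1 kb of the start site in percent (horizontal axes), for 43 NDUF genes (coloured) and other genes marked in every list (grey). The axes leave out 136 of the 10143 genes; NDUF genes below 50% G+C lie mostly below 0 in hairpin 1.

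Many NDUF genes share their promoter with a neighbour, which the plot of G+C and change does not show. A coding gene that starts within 1 kb and runs the other way was present at 17 of 48 (35.4%), against 9.37% of all protein-coding genes and 16.9% of those marked in every list. Another 5 had only a long non-coding RNA in that position. The partners included EEF1B2 at NDUFS1 (451 bp apart), MRPL47 at NDUFB5 (156 bp), ERCC8 at NDUFAF2 (135 bp), ESF1 at NDUFAF5 (109 bp), CEBPZ at NDUFAF7 (62 bp) and TEPSIN at NDUFAF8 (263 bp). With 5 kb as the limit, 27 NDUF genes had another coding start site nearby and 21 had none. NDUFC2 and NDUFC2-KCTD14 were counted here as neighbours of each other. Counts with this limit, also those for the calls below, were not made over all genes and have no background. A peak over such a pair cannot be assigned to either gene. Of the 9 genes with the control below both hairpins, 7 had another coding start site within 5 kb, and of the 8 with the control above both, 3 had one. Among the 24 marked genes with such a neighbour the median difference was 90 bp in hairpin 1 and 233 bp in hairpin 2. Among the 20 without, it was -5.5 and 48 bp.

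Other gene groups of the same organelle set these values in context. Of 57 genes of respiratory complexes II to V, 46 (80.7%) had a promoter peak in every list, and of 78 mitochondrial ribosomal protein genes 76 (97.4%), beside 91.7% for NDUF. The control was above both hairpins at 6 of 46 (13.0%) and 7 of 76 (9.21%) of these, and below both at 9 (19.6%) and 20 (26.3%). Median differences were 142 and 4.5 bp in hairpin 1 and hairpin 2 for complexes II to V, and 41.5 and 88.5 bp for the ribosomal proteins. No test of a difference from the NDUF genes can be made with 1 library per condition.

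Complex I assembly factors with other symbols were examined as well. Of 13, 12 had a promoter peak in every list, and the control was above both hairpins at 3 (10.8% of all marked genes) and below both at 0 (22.1%). ECSIT, a partner of NDUFAF1, had 1906 bp with the control shRNA, 1826 bp with hairpin 1 and 1798 bp with hairpin 2. ACAD9, the other partner, had 2901, 2944 and 3025 bp, so the control was the lowest list but by a small margin. TMEM126A and TMEM186, membrane proteins of the assembly line, had 2786, 2470 and 2350 bp and 2835, 2603 and 2530 bp. Both had the control above the hairpins, as did ECSIT. TMEM70, which also serves ATP synthase assembly, had 4950, 2680 and 5503 bp and no promoter peak in hairpin 1, the list that also lacked the NDUFC2 peak.

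The libraries themselves differed in size. There were 23413, 23819 and 27007 peaks, covering 52.1, 54.4 and 61.9 Mb, in control, hairpin 1 and hairpin 2, with no peak wider than 8841 bp. The promoter of TFAM was covered over 2983, 2787 and 2447 bp, which does not measure the knockdown. Among erythroid markers, HBZ had a promoter peak in every list and TAL1 in the control and hairpin 1, whereas GATA1, KLF1, HBE1, HBG1 and HBG2 had 0 bp in all lists. If wider domains were removed before deposit, which cannot be told from the lists, a value of 0 at these markers, at NDUFC2 or at NDUFB10 could be such a domain.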

How the data were processed

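H3K27ac ChIP-seq peak lists of 3 K562 libraries were used, 1 per condition, grouped by sample title. Per the labels' protocols, libraries were made with a NEBNext kit, sequenced on an Illumina NextSeq500, and only reads with a unique place in hg19 were kept. Bowtie 0.12.7 and Picard are named, without their roles, per the submitters' processing notes. The deposited lists give each peak's bounds and a score, which is the authors' own value and served here for ranks inside each list alone. Peak names carry a MACS prefix. Nothing on sequencing depth, or on the caller's version, threshold and handling of the input, is given in the sources used here, and the input was not analysed here.

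From the lists, covered base pairs were summed within 5 kb of each start site, and a promoter peak was any overlap with 1 kb on each side. Start sites came from GENCODE release 44 mapped to GRCh37, the canonical transcript for 19869 of 20149 genes and the gene's 5′ end for the rest. RefSeq tables on another assembly were not used. Sequences were read from the GRCh37 genome and searched for the motif letters on both strands. Genes with values in every list were those without a stable promoter peak, the 5 largest rises and falls, the core subunits, those past the spread between hairpins and the 3 with the smallest range. Some genes that this rule or a marker list names are not reported here. Other names were chosen after their values were seen. The NDUF genes, lists and rules were chosen with earlier results of these data known. As alternatives, the gene's 5′ end, other windows and overlaps, only promoter peaks, lists of equal length and the 50% of peaks with higher scores were tried. The code was tested on simulated data. It ran in Python 3.11.15 with pandas 2.3.3, numpy 2.4.6, SciPy 1.17.1 and, for plots, matplotlib 3.10.9.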

Additional observations from a re-analysis of the deposited data

Results flagged for a closer look

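At 5 NDUF genes the hairpins lay on opposite sides of the control and differed from each other by at least 1.5-fold in covered bp. Hairpin 2 exceeded hairpin 1 by 1781 bp at NDUFAF5, by 1704 bp at NDUFC1, by 2456 bp at NDUFB10, which has no promoter peak, and by 4549 bp at NDUFC2 and NDUFC2-KCTD14, which share a peak. In each case hairpin 1 was below the control and hairpin 2 above it, though by only 43 bp at NDUFC2 and 163 bp at NDUFC1. The same count was not made over all genes, so it cannot be read as particular to NDUF genes. The difference between the hairpins was not tested, since each has 1 library.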

How the results depend on the processing

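With 1 library per condition there is no replicate check. No paired analysis was possible because each condition has 1 library and no value comes from a test. Depth and calling settings limit what the absence of a peak or its width can show, and a peak over neighbouring start sites cannot be divided. The counts of promoters lost or gained in both hairpins were 0 under every alternative. With the windows changed, the median difference from the control in hairpin 1 was 34.5 bp both at 2.5 kb and at 10 kb, and 6 bp with the gene's 5′ end as start site. In hairpin 2 it was 331 bp at 10 kb. For the 21 genes with no other coding start site within 5 kb, a choice made after seeing the data, 20 had a promoter peak in every list, the medians were -5.5 bp (opposite in sign) and 48 bp, and the control was above both hairpins at 5 and below both at 2. Without NDUFC2-KCTD14, also chosen later, the counts above and below stayed at 8 and 9. Over the alternatives other than these 2 restrictions, 6 of the 8 genes above the control kept the call (NDUFA10, NDUFA11, NDUFA12, NDUFAF4, NDUFB4 and NDUFB6), and 5 of the 9 below (NDUFA7, NDUFA8, NDUFAF2, NDUFAF8 and NDUFS5). NDUFB9 turned to 50 bp more in the hairpins within 10 kb, and the mean difference of NDUFAF1 was 0 bp with the gene's 5′ end. That end is at position 41701601 of chromosome 15. The NDUFAF1 promoter peaks end at 41695385, 41695948 and 41695842 in control, hairpin 1 and hairpin 2, outside its 5 kb window. The 0 thus does not mean that these peaks were equal. The cause of the other shifts was not tested.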

Other observations

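The control list alone held a peak on the mitochondrial chromosome of hg19, at positions 20 to 4599, with a score of 68.63 and a score percentile of 14.7 in that list. Neither hairpin list held one. The mitochondrial sequence of hg19 differs from that of GRCh37, so no gene is assigned to it.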
